A study of Homo sapiens with 16 samples.

Results

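The BCL2 family decides at the mitochondrion whether a cell lives or dies, and 10 of its genes were followed here in MDA-MB-231, a line of human breast cancer cells that is classed as triple-negative and looks mesenchymal. They were picked by symbol, namely the pro-survival genes BCL2, BCL2L1 and MCL1, the effectors BAX and BAK1, and the BH3-only genes BCL2L11, BBC3, PMAIP1, BID and BAD, which make 10 of the 60719 gene identifiers in the count tables. RNA from 16 libraries of 6 conditions was sequenced. Parental 231 (TXNIP wild-type) and 231:TKO (TXNIP knocked out with CRISPR-Cas9) were taken untreated, with 2 replicates each, to ask what loss of TXNIP does to the transcriptome. Both were also given a non-targeting siRNA (parental 231+siNT and 231:TKO+siNT) or an siRNA against Myc (parental 231+siMyc and 231:TKO+siMyc) for 48 h, with 3 replicates each, to ask which transcripts need Myc. According to the study's methods, knockout cells were isolated as single-cell clones, so a difference between the populations is also a difference between a clone and its parent line. The labels name no agent other than the siRNAs.

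In healthy cells, pro-survival proteins hold the effectors BAX and BAK in check. When BH3-only proteins are made or activated under stress, they occupy the pro-survival proteins or engage the effectors directly, the effectors perforate the outer mitochondrial membrane, and cytochrome c released through the pores starts the caspase cascade. TXNIP binds thioredoxin and restrains glucose uptake. Myc, the transcription factor, drives growth and also sensitises cells to apoptosis. With its partner MAX it binds the E-box CACGTG, a motif that other factors, such as the glucose-responsive MondoA, can bind as well. The counts measure transcripts, while much of the regulation of this family acts on the proteins.

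To show what the promoters of these genes hold, RefSeq windows of GRCh38.p14 that span 250 bases before to 50 bases after a transcript start were searched for CACGTG, which reads the same on both strands. Windows were matched by symbol for 9 of the 10 genes (15 windows in all, MCL1 being the gene without a match), and 4 windows of 3 genes, BAX, BBC3 and BID, held the motif. Of all 35116 windows in the table, 7.26% held it at least once and 5 (0.0142%) held it at least 4 times. BAX was one of these 5, with matches starting 138, 93, 45 and 14 bases before its start. BBC3 had a single match, 232 bases before the start, and 2 overlapping windows of the 5 of BID held the same match, 47 bases before the start of the one printed. The windows of BCL2, BCL2L1, BCL2L11, BAK1, PMAIP1 and BAD held none, and a match describes letters only and shows no binding. Printed here are BAX, for its 4 matches, and the 3 genes that passed the test after Myc knockdown in 231:TKO (BBC3, BID and BAK1, the last without a match), each 5′ to 3′ on the strand of the gene with CACGTG in capitals.
BAX, chr19:48954625-48954924, plus strand: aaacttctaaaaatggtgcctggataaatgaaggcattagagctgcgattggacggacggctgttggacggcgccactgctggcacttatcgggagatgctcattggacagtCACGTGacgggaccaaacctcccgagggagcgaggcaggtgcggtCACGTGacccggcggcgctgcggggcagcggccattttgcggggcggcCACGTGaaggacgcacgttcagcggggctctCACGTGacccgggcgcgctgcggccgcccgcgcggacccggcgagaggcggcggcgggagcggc
BBC3, chr19:47232618-47232917, minus strand: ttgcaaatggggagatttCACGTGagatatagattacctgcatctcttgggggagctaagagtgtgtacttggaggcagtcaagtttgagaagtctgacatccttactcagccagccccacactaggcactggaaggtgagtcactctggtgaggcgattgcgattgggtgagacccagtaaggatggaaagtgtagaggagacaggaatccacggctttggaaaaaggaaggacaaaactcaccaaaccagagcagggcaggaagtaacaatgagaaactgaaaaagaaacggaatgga
BID, chr22:17773993-17774292, minus strand: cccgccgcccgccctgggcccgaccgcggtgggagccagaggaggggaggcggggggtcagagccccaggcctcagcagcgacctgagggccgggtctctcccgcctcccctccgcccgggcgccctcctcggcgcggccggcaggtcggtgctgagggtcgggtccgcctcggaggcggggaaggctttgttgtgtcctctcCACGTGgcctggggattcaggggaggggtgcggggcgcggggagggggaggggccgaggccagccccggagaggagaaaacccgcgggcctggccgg
BAK1, chr6:33580227-33580526, minus strand: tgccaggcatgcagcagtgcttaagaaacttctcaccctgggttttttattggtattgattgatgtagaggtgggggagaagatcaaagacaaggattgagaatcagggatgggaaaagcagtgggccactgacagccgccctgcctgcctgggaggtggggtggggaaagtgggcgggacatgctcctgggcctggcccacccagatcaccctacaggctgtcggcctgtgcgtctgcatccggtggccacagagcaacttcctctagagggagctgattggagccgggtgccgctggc

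Levels are given as CPM, counts scaled by library total with TMM factors over all 16 libraries, and a fold change is the log2 difference from edgeR's quasi-likelihood test with its standard error (SE). A gene was called when its adjusted p-value (Benjamini-Hochberg over all genes tested) was at most 0.05. TXNIP checked the labels of the knockout. It was at 283 CPM in both parental 231 libraries, at 12.4 and 45.5 in 231:TKO, between 302 and 323 in parental 231+siNT and between 6.54 and 7.92 in 231:TKO+siNT. In edgeR's test TXNIP was called lower with siNT but was not called between the untreated populations. A gene not called in the untreated comparison is therefore not shown to be unchanged. MYC checked the knockdown. It was between 121 and 144 CPM in 231:TKO+siNT against 58.1 to 58.8 in 231:TKO+siMyc, and between 127 and 132 in parental 231+siNT against 64.5 to 67.6 in parental 231+siMyc. VIM (1814 to 3117 CPM), CD44 and FN1 were high in every library, and the receptors ESR1 and PGR were at or near 0 (at most 0.305 CPM), as the label of the line implies, while ERBB2 was at 76.2 to 106 CPM and EPCAM at 12.2 to 31.3. CDH1, the epithelial cadherin, ran from 0.267 to 9.42 CPM and was lower in 231:TKO both untreated (-3.85, adjusted p = 0.00726) and with siNT (-3.10, adjusted p = 1.4e-06). Among markers of other cells, the blood marker PTPRC reached at most 1.48 CPM and the fibroblast collagen COL1A1 lay between 4.23 and 20.3, and their summed level was 4.30 to 11.2 CPM in the 231:TKO groups and 8.31 to 21.7 in the parental 231 groups. PTPRC was called lower in untreated 231:TKO, and PTPRC and COL1A1 both were with siNT. The part of these markers in the results was not tested.

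Total counts per library lay between 18953668 and 59799444. Some features of the libraries touch the values below. Counts stand for single reads in untreated cells but for read pairs after siRNA, so treatment and read layout cannot be told apart. For the siRNA libraries of parental 231 a later Ensembl release was used than for all others, although each of the 10 genes had the same length in both. The 231:TKO libraries also stood further from each other than the parental 231 libraries did (SD of the log2 deviation from the group mean over genes, 0.244 against 0.0775), and parental 231+siNT replicate 1 and parental 231+siMyc replicate 3 deviated from their groups together (correlation of the deviations across genes, 0.90). The study describes the replicates as biological, and nothing in the labels says whether they were separate cultures, so p-values measure the spread between these samples, whatever its source. In bulk RNA, fewer cells of a kind and less RNA per cell cannot be told apart.

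All 10 genes were detected in all 16 libraries, with 48 counts (BBC3 in 231:TKO replicate 1) as the lowest value and 53865 (BCL2L1) as the highest. Per kilobase of exon, BCL2L1 was the highest of the 10 in every condition, with 109 ± 0.211 CPM per kb in parental 231 (SD, n = 2) as its lowest mean and 229 ± 6.55 in parental 231+siMyc (SD, n = 3) as its highest. PMAIP1, at 67.7 ± 0.0834, and MCL1, at 54.7 ± 0.916, came next in parental 231. BAD (27.8 ± 0.843) and BAX (27.5 ± 0.559) followed with overlapping replicates, and then BAK1 (10.5 ± 0.418), BID (5.68 ± 0.256), BCL2L11 (3.96 ± 0.00876), BCL2 (1.10 ± 0.0394) and BBC3 (0.884 ± 0.0535; SD, n = 2 each), whose replicates did not overlap with their neighbours in this order. In 231:TKO the order was the same, but PMAIP1 and MCL1 overlapped, as did BID and BCL2L11. BCL2 was thus the scarcest pro-survival transcript of the 3. In the siRNA libraries it was the last of all 10, at 0.612 ± 0.0748 CPM per kb in parental 231+siMyc (SD, n = 3).

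**Figure D1:**
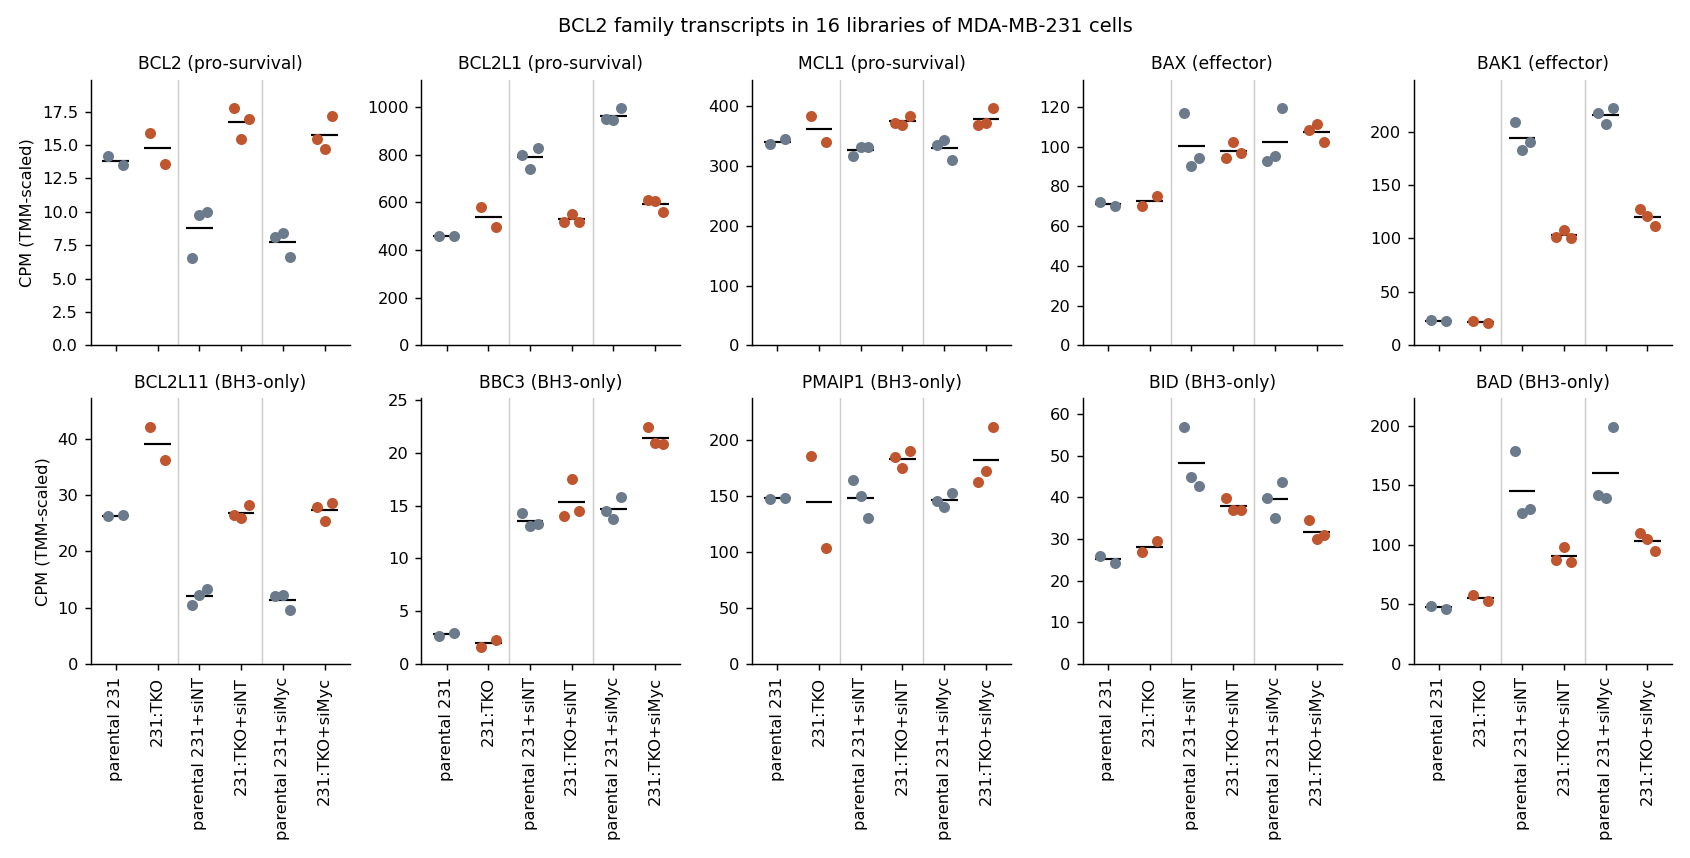
Level of each gene (CPM after TMM scaling, linear axis from 0) in each of the 16 libraries, grouped by condition, with parental 231 in grey and 231:TKO in orange. Points are libraries and bars are group means. BAK1 and BBC3 sit far lower in the untreated than in the siRNA libraries of both populations, and BCL2L11 is higher in 231:TKO than in parental 231 in each condition.

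The effector BAK1 and the BH3-only gene BBC3 differed most between untreated and siRNA libraries. BAK1 (ENSG00000030110, chromosome 6 from 33572547 to 33580293, minus strand), which is anchored in the mitochondrial membrane, was at 23.8 and 22.5 CPM in parental 231 and at 22.8 and 20.7 in 231:TKO. With siNT it was at 209, 182 and 190.3 in parental 231 and at 101, 108 and 101 in 231:TKO, so that the mean was 8.37 times that of untreated cells in parental 231 and 4.75 times in 231:TKO. BBC3 (ENSG00000105327, chromosome 19 from 47220822 to 47232766, minus strand), which encodes PUMA, a potent binder of all pro-survival members, was at 2.70 and 2.94 CPM in parental 231, at 1.6 and 2.30 in 231:TKO, and at 13.04 to 17.5 with siNT. Its ratios of means were 4.81 and 7.87. For both genes no siRNA library overlapped with an untreated one. MCL1, in contrast, had ratios of 0.960 and 1.04. These ratios are descriptions without a test, because siRNA and read layout change together.

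Untreated, 231:TKO differed from parental 231 in 1 of the 10 genes, BCL2L11, which was higher. This stands beside 9.61% of the 19965 genes tested that were called in this comparison, and the median log2 fold change of the 10 genes was 0.08 against 0.0048 over all tested genes. BCL2L11 (ENSG00000153094, chromosome 2 from 111119378 to 111168445, plus strand) encodes BIM, a BH3-only protein that binds all pro-survival members and is induced by FOXO factors when growth signals are withdrawn. It was at 26.3 and 26.4 CPM in parental 231 and at 42.1 and 36.2 in 231:TKO, without overlap, a log2 fold change of 0.56 (SE 0.10, adjusted p = 0.0349 from edgeR). Its neighbourhood moved with it. The 71 other expressed genes (mean above 1 CPM) of the same 20 Mb of chromosome 2, from 100 to 120 Mb, had a median log2 fold change of 0.53, and they lay above parental 231 by 0.56 and 0.47 in the 231:TKO replicates. With the shift of each window taken out, the log2 fold change of BCL2L11 was 0.04 (adjusted p = 0.817). Without parental 231 replicate 1 or 2, edgeR called 0 of all genes (2166 and 2140 at an unadjusted p under 0.05), so these settings say nothing on BCL2L11, whose fold change was 0.55 and 0.56 in them.

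PMAIP1 (ENSG00000141682, chromosome 18 from 59899996 to 59904305, plus strand), which encodes NOXA, a BH3-only protein that mainly antagonises MCL1, was split between the knockout replicates. It was at 148 CPM in both parental 231 libraries but at 186 and 103.9 in 231:TKO, so that 1 knockout library lay above and the other below the parental pair. The log2 fold change was -0.04 (SE 0.28, adjusted p = 0.951). Without 231:TKO replicate 2 it was 0.32, and without replicate 1 it was -0.53. Each of these fits holds a single knockout library and cannot measure the spread between knockout libraries. Its 51 neighbours between 40 and 60 Mb of chromosome 18 had a median of 0.62 and did not split, at 0.63 and 0.56 in the 2 libraries. PMAIP1 in 231:TKO replicate 2 was lower than parental 231 by 0.51 on the log2 scale while its neighbours were higher.

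The other 8 genes did not pass the test between the untreated populations. Some gained a call when a 231:TKO replicate was left out, but those fits hold a single knockout library and cannot measure its spread. Of the pro-survival genes, BCL2L1 (ENSG00000171552, chromosome 20 from 31664452 to 31723989, minus strand), which encodes BCL-XL, was at 459 and 459.9 CPM in parental 231 and at 580.0 and 497 in 231:TKO (log2 fold change 0.22, SE 0.09, adjusted p = 0.196). Both knockout libraries lay above both parental ones. BCL2 (ENSG00000171791, chromosome 18 from 63123346 to 63320128, minus strand), the founding member of the family, was at 14.2 and 13.5 against 15.9 and 13.6 CPM, and the groups overlapped (0.08, adjusted p = 0.741). MCL1 (ENSG00000143384, chromosome 1 from 150560895 to 150579738, minus strand), a short-lived protein, was at 336 and 344 against 384 and 341 CPM, again with overlap (0.08, adjusted p = 0.573). The effector BAX (ENSG00000087088, chromosome 19 from 48954815 to 48961798, plus strand), which moves from the cytosol to mitochondria when activated, was at 72.1 and 70.0 against 70.0 and 75.2 CPM, with a log2 fold change of 0.02. That of BAK1 was -0.10, with the knockout libraries reaching into the range of the parental ones. Among the BH3-only genes, BBC3 had the largest fold change that was not called, -0.54 (SE 0.27, adjusted p = 0.297), on 48 to 67 counts per library. Its knockout libraries both lay below the parental ones. BAD (ENSG00000002330, chromosome 11 from 64269830 to 64284704, minus strand), whose protein is held inactive by survival kinases, was at 48.5 and 46.5 against 58.1 and 52.9 CPM (0.22, SE 0.08, adjusted p = 0.172). BID (ENSG00000015475, chromosome 22 from 17734138 to 17774770, minus strand), which caspase-8 cleaves to link death receptors to mitochondria, was at 25.9 and 24.3 against 26.8 and 29.4 (0.16, SE 0.10, adjusted p = 0.384).

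**Figure D2:**
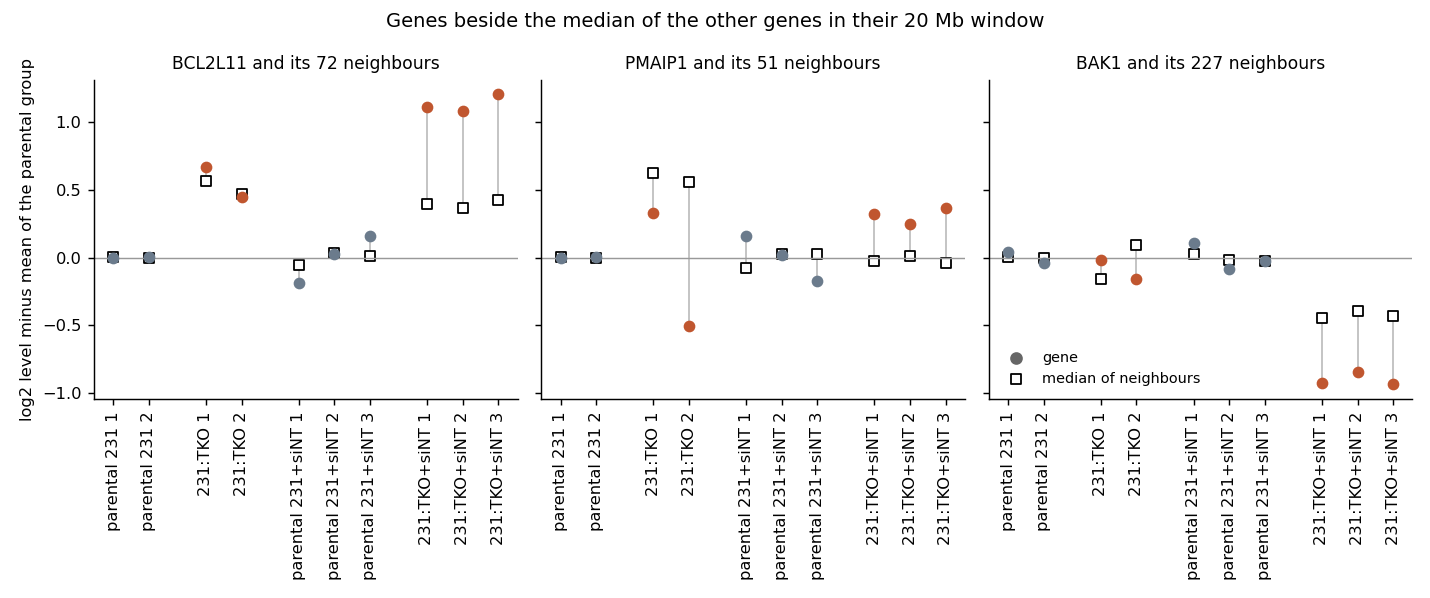
Log2 level of BCL2L11, PMAIP1 and BAK1 (filled points) and the median of the other expressed genes in the same 20 Mb window (open squares), each relative to the mean of the parental group with the same treatment, in every untreated and siNT library. In 231:TKO the neighbours of BCL2L11 lie 0.36 to 0.56 above the parental mean in all 5 libraries, and the untreated points of the gene fall on them while the siNT points lie above.

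With siNT, 7 of the 10 genes differed between 231:TKO and parental 231, of which 4 were higher and 3 lower in 231:TKO. This comparison called 36.8% of 23310 genes (16.1% higher and 20.7% lower), and the median of the 10 genes was 0.11 against -0.03 over all tested genes. BCL2L11, BCL2, PMAIP1 and MCL1 were the higher genes, BAK1, BAD and BCL2L1 the lower ones, so each of the roles held genes of both directions except the effectors. The difference between the populations here is also one of annotation release and of total counts per library. Totals were 31848151 to 34372015 in 231:TKO+siNT and 48203939 to 49254930 in parental 231+siNT. Neither feature can be told apart from the populations here.

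BCL2L11 had the largest difference. It was at 10.5, 12.2 and 13.4 CPM in parental 231+siNT and at 26.4, 25.9 and 28.3 in 231:TKO+siNT, a log2 fold change of 1.2 (SE 0.11, adjusted p = 1.2e-05). Its 72 neighbours had a median of 0.46, and with the window shifts taken out the log2 fold change was 0.72 (adjusted p = 0.000244), so that here the gene stood above its neighbours. BCL2 was at 6.57, 9.75 and 10.0 CPM in parental 231+siNT and at 17.8, 15.5 and 16.9 in 231:TKO+siNT (0.97, SE 0.15, adjusted p = 0.000557). The 2 groups did not overlap for either gene, nor did they for BCL2L1, which went the other way. BCL2L1 was at 797, 741 and 826 CPM in parental 231+siNT and at 516, 550.5 and 518 in 231:TKO+siNT (-0.54, SE 0.08, adjusted p = 0.000500). The pro-survival transcripts thus moved in opposite directions. PMAIP1, at 165, 149.8 and 131 against 185, 175 and 191 CPM, was higher by 0.34 (SE 0.10, adjusted p = 0.0189), and it lost its call in 4 of 15 alternatives, including without 231:TKO+siNT replicate 1 (adjusted p = 0.0761) or 3 (0.0920) or parental 231+siNT replicate 3 (0.0628). MCL1, at 317, 333 and 331 against 372, 369 and 384, was higher by 0.23 (SE 0.08, adjusted p = 0.0417), a call that was lost in 9 of 15 alternatives.

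BAK1 was lower in 231:TKO+siNT, with the levels given above, by 0.87 on the log2 scale (fold change -0.87, SE 0.09, adjusted p = 1.9e-05). Its 227 neighbours on chromosome 6, from 20 to 40 Mb, had a median of -0.42, and with the window shifts taken out BAK1 was at -0.46 (adjusted p = 0.00123). BAD was at 179, 126 and 130.2 CPM in parental 231+siNT and at 87.0, 98.5 and 86.0 in 231:TKO+siNT (-0.64, SE 0.13, adjusted p = 0.00246). BID, at 56.9, 44.9 and 42.7 against 39.8, 36.8 and 37.03 CPM, did not overlap between the groups but missed the threshold (-0.31, SE 0.11, adjusted p = 0.0553). BBC3 (0.22, SE 0.11, adjusted p = 0.157) and BAX (0.00, SE 0.11, adjusted p = 0.999) were not called, although with window offsets, where 9 of the 10 genes and 34.1% of all genes were called, BBC3 (0.38, adjusted p = 0.0173) and BID (-0.44, adjusted p = 0.00814) were. For BAX the 3 libraries of 231:TKO+siNT (94.3, 103 and 96.9 CPM) lay inside the range of parental 231+siNT (117, 90.4 and 94.1). The 117 was replicate 1, from the pair that deviated together, and the 231:TKO+siNT libraries lay above the other parental ones. Without that replicate BAX was at 0.14 (edgeR adjusted p = 0.0574). BAD was then at -0.45 (6.95e-10), BID at -0.16 (0.0466) and BBC3 at 0.27 (0.0106). In that fit 9 of the 10 genes, all but BAX, and 48.2% of all genes were called.

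Base composition moved with this comparison. With genes above 1 CPM in 5 bins of equal size by transcript GC content, the bin of highest GC had a median log2 fold change of -0.28 and the others lay between -0.08 and 0.08, and BBC3 (69.7% GC), BAD (66.3%), BAX (58.9%), BAK1 (58.8%) and BCL2L1 (58.2%) belong to that bin. With offsets for GC content, a step added after the data had been seen, 6 of the 10 genes and 35.9% of all genes were called. BAD, at -0.19 (adjusted p = 0.187), and MCL1, at 0.14 (adjusted p = 0.171), were no longer among them, and BBC3 was, at 0.66 (adjusted p = 0.000387). BCL2L11 (1.14), BCL2 (0.89), BAK1 (-0.69), BCL2L1 (-0.36) and PMAIP1 (0.35) were called with and without the offsets. The direction of BAX depended on the setting, at 0.18 (adjusted p = 0.190) with the offsets.

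**Figure D3:**
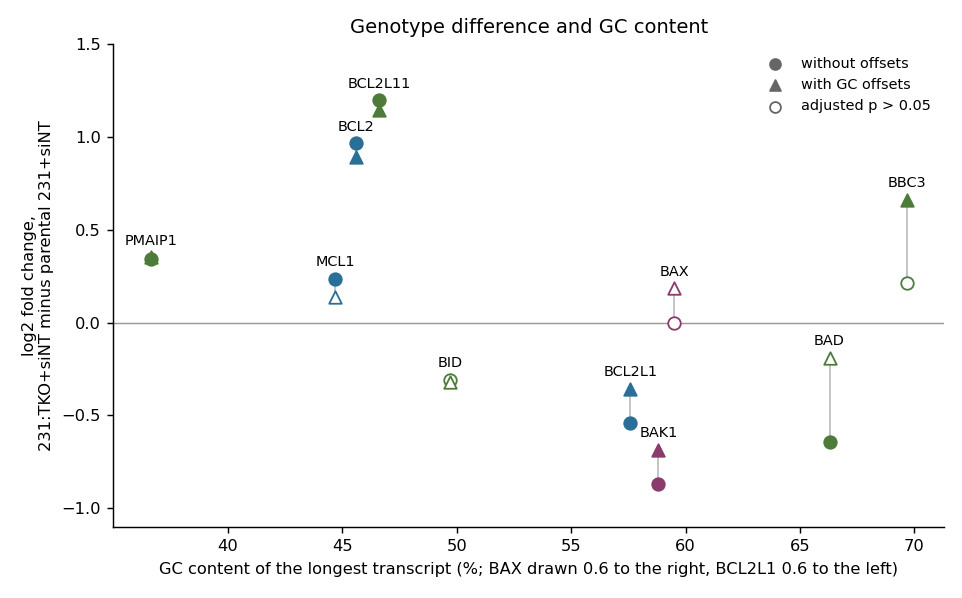
Log2 fold change of each gene between 231:TKO+siNT and parental 231+siNT (vertical axis) against the GC content of its longest transcript in percent (horizontal axis), without (circles) and with (triangles) offsets for GC content, filled where the adjusted p is at most 0.05. Genes of high GC content shift upward with the offsets, BAD from -0.64 to -0.19 and BBC3 from 0.22 to 0.66, while genes of lower GC content move by at most 0.10.

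Whether the effect of the knockout itself differed between untreated and siNT cells was tested as a difference of differences. It was past the threshold for 5 of the 10 genes (3 higher and 2 lower), in a comparison that called 14.1% of 25112 genes (7.91% higher and 6.2% lower). BAD (0.87, SE 0.20, adjusted p = 0.00803), BAK1 (0.78, SE 0.15, adjusted p = 0.00221) and BCL2L1 (0.77, SE 0.14, adjusted p = 0.00215) had a higher effect in untreated than in siNT cells. For BCL2 (-0.88, SE 0.24, adjusted p = 0.0201) and BCL2L11 (-0.63, SE 0.17, adjusted p = 0.0235) the effect was lower in untreated cells. The bin of highest GC content had a median of 0.17 in this contrast, and with GC offsets, where 6 of the 10 genes and 14.3% of all genes were called, BAD was at 0.57 (adjusted p = 0.0332) and BBC3 at -1.04 (adjusted p = 0.00715, against 0.0637 without the offsets). Read by group, the parental means changed more than the knockout means: BCL2L1 was 1.72 times as high with siNT as without in parental 231 and 0.981 times in 231:TKO, BCL2 0.634 and 1.13 times, and BCL2L11 0.456 and 0.686 times. Read layout and annotation release move with this contrast, and their part in it was not tested.

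**Figure D4:**
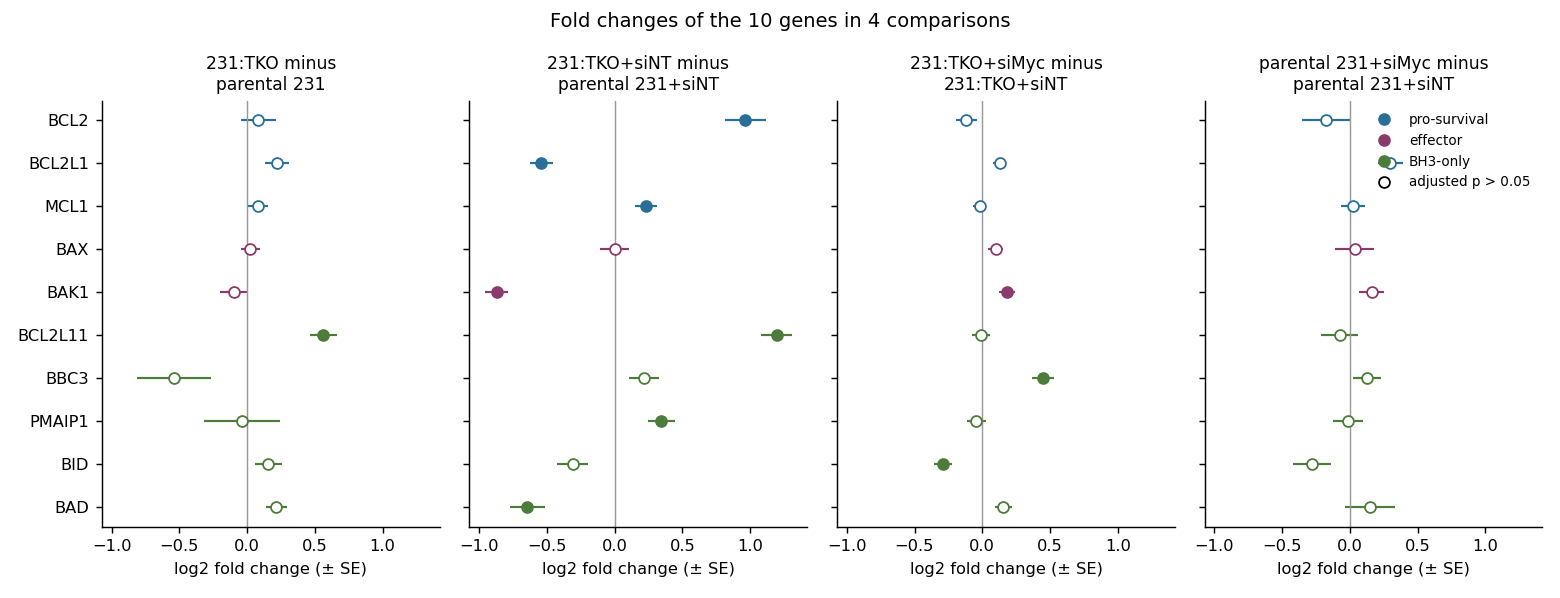
Log2 fold changes (points) with SE (bars) of the 10 genes in the 4 comparisons of 2 groups, coloured by role and filled where edgeR's adjusted p is at most 0.05. The untreated panel has 1 filled point (BCL2L11), the siNT panel 7, the 231:TKO+siMyc panel 3 (BAK1, BBC3 and BID) and the parental 231+siMyc panel 0.

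After Myc knockdown in 231:TKO cells, 3 of the 10 genes changed. The BH3-only gene BBC3 and the effector BAK1 rose, and the BH3-only gene BID fell. This comparison called 27.2% of 22450 genes (13.3% higher and 13.9% lower), and the median of the 10 genes was 0.05 against 0.0069 over all tested genes, so 3 of 10 is near the share of all genes. The siNT libraries of each population serve both in its siMyc comparison and in the genotype comparison with siNT, so these comparisons share samples. BBC3 went from 14.02, 17.5 and 14.5 CPM with siNT to 22.5, 20.9 and 20.8 with siMyc, with every siMyc library above every siNT library. Its log2 fold change was 0.45 (SE 0.08, adjusted p = 0.000209), a rise of 36.4%, and it was called in all 14 alternatives tried. Apart from the replicate block, their adjusted p-values ran from 1.9e-07 to 0.00560. BAK1 went from 101, 108 and 101 to 127, 121 and 111 CPM, also without overlap (0.18, SE 0.06, adjusted p = 0.0205). BAK1 lost its call in 6 of 14 alternatives, including without 231:TKO+siNT replicate 1 or 3 or 231:TKO+siMyc replicate 1 or 2 (adjusted p = 0.0916, 0.115, 0.116 and 0.108). BID fell from 39.8, 36.8 and 37.03 to 34.5, 29.9 and 30.9 CPM, a log2 fold change of -0.29 (SE 0.07, adjusted p = 0.00211). Its 3 siMyc libraries lay below its 3 siNT libraries. BID lost its call in 1 of 14 alternatives, the fit of the 12 siRNA libraries (-0.26, edgeR adjusted p = 0.180). The bin of highest GC content had a median of 0.10 here, against -0.06 to 0.02 in the other bins, and with offsets for GC content BBC3 was at 0.34 (adjusted p = 8.2e-06), BAK1 at 0.10 (adjusted p = 0.0142) and BID at -0.29 (adjusted p = 1.4e-06).

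The other 7 genes did not pass the threshold in 231:TKO. BCL2L1, at 609, 605 and 560.1 CPM with siMyc, lay above all siNT libraries with a log2 fold change of 0.13 (SE 0.05, adjusted p = 0.0566). BAD, at 110.1, 105 and 94.7 CPM with siMyc, overlapped with siNT (0.16, SE 0.06, adjusted p = 0.0776). BAX, the gene with 4 E-boxes in its window, was at 109, 111 and 102.2 CPM with siMyc (0.10, SE 0.05, adjusted p = 0.204). BCL2 was at 15.5, 14.7 and 17.2 CPM with siMyc (-0.12, adjusted p = 0.315). BCL2L11, at 28.0, 25.4 and 28.6 CPM, had a log2 fold change of -0.0083 (adjusted p = 0.955). Both genes overlapped with siNT. PMAIP1 was at 163, 173 and 212 CPM with siMyc (-0.04, adjusted p = 0.724), and among the alternatives it was called only without 231:TKO+siMyc replicate 3, its highest library (-0.16, adjusted p = 0.00721).

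After Myc knockdown in parental 231 cells, 0 of the 10 genes passed edgeR's threshold, in a comparison that called 0.594% of 23728 genes. At an unadjusted p under 0.05 there was 1 gene of the 10 (BCL2L1) and 3462 of all genes, and DESeq2 called 1110 genes and 0 of the 10. The median of the 10 genes was 0.03 against -0.0016 over all tested genes. BCL2L1 had the largest value, from 797, 741 and 826 CPM with siNT to 947, 946 and 994 with siMyc, without overlap (0.30, SE 0.09, adjusted p = 0.181). BID, at 39.8, 35.0 and 43.7 CPM with siMyc, had a log2 fold change of -0.28 (SE 0.14, adjusted p = 0.421), BAK1, at 217, 207 and 222, one of 0.16 (SE 0.09, adjusted p = 0.50), and BBC3, at 14.5, 13.8 and 15.8, one of 0.13 (SE 0.10, adjusted p = 0.663). All siMyc libraries of BAK1 but 1 lay above its siNT libraries, while those of BBC3 and BID overlapped with siNT. The other genes overlapped too. BCL2 was at 8.12, 8.40 and 6.65 CPM with siMyc, and BCL2L11 at 12.1, 12.3 and 9.65. MCL1 was at 336, 344 and 311, PMAIP1 at 146, 140.1 and 153, BAX at 92.6, 95.1 and 119 and BAD at 142, 139 and 199 CPM. In BCL2, BCL2L11, MCL1, BAX and BAD, replicate 3 stood apart from replicates 1 and 2.

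The pair of parental libraries that deviated together bears on this comparison, because 1 of them has siNT and the other siMyc. Against the other 4 parental siRNA libraries the pair was higher in BAD (by 0.49 on the log2 scale), BAX (0.34) and BID (0.30) and lower in BCL2 (-0.42) and BCL2L11 (-0.30). With a factor for the pair, chosen after the data had been seen, 26.8% of genes were called and 4 of the 10 were among them. BCL2L1 (0.30, adjusted p = 4.9e-07), BAK1 (0.16, adjusted p = 0.00218) and BAD (0.15, adjusted p = 0.00438) were higher and BID (-0.27, adjusted p = 3.9e-05) was lower. With the pair left out, 20.8% of genes were called, and 3 of the 10 were among them, a share near that of all genes. These were BCL2L1 (0.27, adjusted p = 0.00335), BAK1 (0.18, adjusted p = 0.0141) and BID (-0.23, adjusted p = 0.0248). BBC3 was called in neither (0.13, adjusted p = 0.202, and 0.10, adjusted p = 0.451).

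The responses of the populations to siMyc were compared directly in 1 fit of the 12 siRNA libraries. The difference (231:TKO minus parental 231) was called for 0 of the 10 genes and for 0% of 25812 genes. At an unadjusted p under 0.05 it held 1 of the 10, BBC3, and 1039 of all genes, and DESeq2 called 6 genes and 0 of the 10. BBC3 had a difference of 0.35 (SE 0.14, adjusted p = 1.00) and lay between 0.26 and 0.45 in all 21 alternatives, called in none of them. The other differences lay between -0.14 (BCL2L1, SE 0.11) and 0.10 (BCL2L11, SE 0.16). A call in 231:TKO and none in parental 231 is thus not a tested difference between them.

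**Figure D5:**
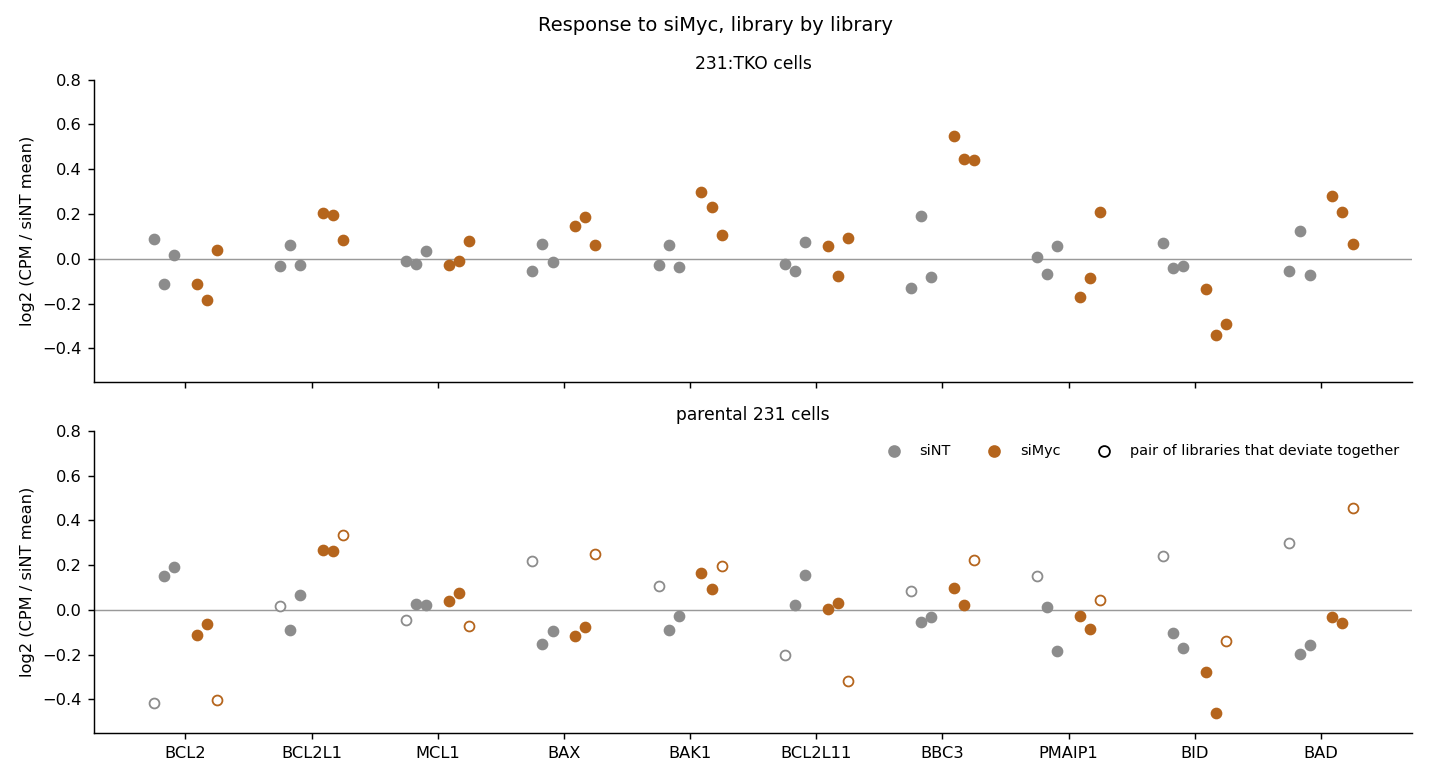
Log2 ratio of each library's CPM to the mean of the 3 siNT libraries of the same population, for siNT (grey) and siMyc (brown) libraries of 231:TKO (top) and parental 231 (bottom). Open points are the 2 parental libraries that deviate together. BBC3, BAK1 and BCL2L1 in 231:TKO and BCL2L1 in parental 231 have all 3 siMyc libraries above all 3 siNT libraries. BID in 231:TKO has all 3 below.

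Other genes of the apoptotic pathways were counted from lists drawn up by known function. The counts of these lists stand beside the shares of all tested genes that edgeR called. These were 9.61% untreated and 36.8% with siNT (16.1% higher and 20.7% lower). With siMyc they were 27.2% in 231:TKO (13.3% higher and 13.9% lower) and 0.594% in parental 231. Whether a list differs from these shares was not tested. Of 7 further BCL2 family genes, 5 were tested in the untreated comparison and 6 with siNT. Between the untreated populations 0 of 5 were called by edgeR (3 at an unadjusted p under 0.05), and with siNT 2 of 6 were lower in 231:TKO, namely the effector-like BOK (-0.79, SE 0.09, adjusted p = 6.5e-05) and BCL2A1, which had at most 13 counts in any library, and 0 were higher. With siMyc in 231:TKO, 1 of 5 rose, BMF, a BH3-only gene linked to the cytoskeleton. It went from 11.98 ± 0.551 to 21.4 ± 0.798 CPM (SD, n = 3; 0.81, SE 0.07, adjusted p = 3.7e-08). In parental 231 BMF had a log2 fold change of 0.56 (SE 0.15, adjusted p = 0.140), with 0 of 6 called by edgeR (1 at an unadjusted p under 0.05). The list's median log2 fold change was -1.04 untreated, -0.39 with siNT and -0.06 after siMyc in 231:TKO.

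Downstream of the mitochondrion, the list of apoptosome, caspase and inhibitor genes had 3 of 13 higher and 0 lower in untreated 231:TKO, among them the executioner caspase CASP6 (0.75, SE 0.11, adjusted p = 0.0190) and the inhibitor BIRC2 (0.46, SE 0.06, adjusted p = 0.0172). With siNT 1 was higher, BIRC3 (0.66), and 6 were lower, among them CYCS, which encodes cytochrome c (-0.62), and HTRA2 (-0.71). With siMyc in 231:TKO, CASP9, the apoptosome's caspase, rose (0.24, SE 0.08, adjusted p = 0.0201), while CYCS (-0.50, SE 0.08, adjusted p = 6.1e-05), the survivin gene BIRC5 (-0.34, SE 0.05, adjusted p = 2.8e-05) and VDAC2 (-0.20) fell. In parental 231 cells 0 of 13 were called by edgeR with siMyc (3 at an unadjusted p under 0.05). The list's medians were 0.11 untreated, -0.24 with siNT and 0.04 after siMyc in 231:TKO.

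The death receptor pathway meets the BCL2 family at BID. Of its 10 genes, 3 were higher and 0 lower in untreated 231:TKO, namely CFLAR (0.95, SE 0.18, adjusted p = 0.0464), CASP8 (0.47, SE 0.08, adjusted p = 0.0267) and FADD (0.39, SE 0.07, adjusted p = 0.0393). CASP8, the protease that cleaves BID, was also higher with siNT (1.09, SE 0.09, adjusted p = 3.2e-06), where 3 of 10 were higher and 2 lower. FADD was lower there (-0.73), as was TRADD (-1.0). In 231:TKO with siMyc, 2 rose and 3 fell. The TRAIL receptors TNFRSF10B (-0.70, SE 0.05, adjusted p = 1.2e-09) and TNFRSF10A (-0.46, SE 0.06, adjusted p = 2.6e-06) fell together with BID, and TRADD rose (0.51, SE 0.08, adjusted p = 4.1e-05). In parental 231, 0 of 10 were called by edgeR (4 at an unadjusted p under 0.05). The medians of this list were 0.12 untreated, 0.12 with siNT and 0.07 after siMyc in 231:TKO.

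BBC3 and PMAIP1 are known to be induced by DNA damage and other stress. Of 12 other genes of that stress response, 0 were higher and 2 lower in untreated 231:TKO, FDXR (-0.74) and GDF15 (-3.09). With siNT, 6 were higher and 4 lower, led by BTG2 (2.35), TP53I3 (-1.54) and TP53INP1 (1.35). In 231:TKO with siMyc, 2 were higher and 1 lower, namely TP53INP1 (0.88, SE 0.06, adjusted p = 2.5e-09) and CDKN1A (0.21, SE 0.05, adjusted p = 0.00591), which rose with BBC3, and MDM2 (-0.77, SE 0.07, adjusted p = 4.2e-08), which fell. In parental 231, TP53INP1 rose as well (0.77, SE 0.10, adjusted p = 0.0378), as 1 of 12. The list's medians were -0.19 untreated, 0.31 with siNT and 0.02 after siMyc in 231:TKO.

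Of 8 transcription factors known to act on the family, 2 were lower and 0 higher in untreated 231:TKO, among them FOXO1 (-1.68, SE 0.28, adjusted p = 0.0297). With siNT, FOXO3 (1.25, SE 0.13, adjusted p = 2.7e-05) and FOXO1 (0.79, SE 0.11, adjusted p = 0.000276), both known activators of BCL2L11, were higher and 0 were lower. In 231:TKO with siMyc, 1 rose (FOXO3, 0.27) and 4 fell, among them E2F1 (-0.27, SE 0.05, adjusted p = 0.000369) and MYC itself (-1.21, SE 0.06, adjusted p = 1.7e-11). In parental 231 only MYC of the 8 was called (-0.96, SE 0.09, adjusted p = 0.0297). The medians of these 8 genes were -0.22 untreated, 0.07 with siNT and -0.13 after siMyc in 231:TKO. For the difference of the siMyc responses, 0 genes of any of these lists were called by edgeR.

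MCL1 is known to be set largely by protein turnover, and 3 genes of that process were followed beside its level. USP9X, the deubiquitinase that stabilises MCL1, was higher in untreated 231:TKO (0.65, SE 0.08, adjusted p = 0.0147) and with siNT (0.90, SE 0.14, adjusted p = 0.000425). The ubiquitin ligase HUWE1 was higher with siNT (1.06, SE 0.35, adjusted p = 0.0471), and the median of the 3 genes was 0.90 there. HUWE1 spread widely in parental 231+siNT, at 371 ± 184 CPM against 753 ± 24.0 in 231:TKO+siNT (SD, n = 3 each). In 231:TKO with siMyc, HUWE1 (-0.26, SE 0.04, adjusted p = 0.000128) and FBXW7 (-0.24, SE 0.07, adjusted p = 0.0124), another ligase, fell, while MCL1 was at 368, 372 and 397 CPM against 372, 369 and 384 (-0.02, SE 0.05, adjusted p = 0.829). In parental 231, 0 of the 3 were called by edgeR (0 at an unadjusted p under 0.05).

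Added up by role, per kilobase, the pro-survival transcripts made 53.1% to 53.8% of the level of the 10 genes in the parental 231 libraries and 54.3% to 57.3% in 231:TKO. In the siRNA libraries they made 41.6% to 49.2%, and the effectors made 19.6% to 24.1% against 10.1% to 12.6% in untreated cells. These shares rest mainly on BCL2L1, PMAIP1, MCL1, BAD and BAK1, the 5 most abundant genes per kilobase with siNT, and carry no test. With both siRNAs the effectors took 22.8% to 24.1% in parental 231 and 19.6% to 21.5% in 231:TKO.

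Reads of overlapping genes limit some of these values. Counting used strand, and the overlaps on the opposite strand, such as ABALON over 41.3% of the exonic bases of BCL2L1, GPR137 over 23.7% of those of BAD and MIR4435-2HG over 10.9% of those of BCL2L11, are therefore separable. On the same strand, ADAMTSL4-AS1 covers 5.27% of the exonic bases of MCL1, ACOXL 2.88% of those of BCL2L11 and an unnamed gene 2.39% of those of BBC3.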

How the data were processed

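RNA of 16 libraries was sequenced from mRNA captured from total RNA. The authors used STAR for alignment to GRCh38 and featureCounts 1.6.3, set to the reverse strand and largest overlap, for counting, and deposited raw counts per gene and library, not normalized. Gene identifiers were matched to symbols for 58705 of 60719, and 60620 were shared by the 2 annotation releases. Samples were grouped by their labels. The 10 genes and the other lists were chosen with earlier results of these data known. All 10 genes are named. From each other list the text names at most 3 called genes per comparison by largest fold change, if their mean reached 1 CPM and replicates did not overlap. BMF in parental 231, BCL2A1, GDF15, VDAC2 and FOXO3 with siMyc were named after their values were seen. Some called genes of these lists are not reported here by name.

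A gene entered a comparison if its counts over the fitted libraries summed to more than 5. The test was the quasi-likelihood one of edgeR 4.0.16 (R 4.3.3; robust, TMM, no covariate), with Benjamini-Hochberg adjustment over all genes tested. The alternatives were DESeq2 1.42.0, DESeq2's size factors, no or a stricter filter, an adjusted p of at most 0.01, a replicate block, each replicate left out, offsets for windows of 20 Mb and 1 fit of the 12 siRNA libraries. Offsets for GC content, a factor for the pair of parental libraries and that pair left out were added after the data were seen. The GC content came from a GRCh37 transcript set and no coordinates did. The steps were tested on simulated data with 200 changed genes. There all genes had the same set variability and libraries were independent, so error rates in these data were not measured. Protein sequences and a GRCh38 genome were not used here. Reads carry no molecular identifiers. The SE of a fold change comes from edgeR's fit of the replicates, and an SD is the spread between the libraries of a group. No like-pattern genes are given because 0 of the 10 genes passed the threshold in both siMyc comparisons.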

Additional observations from a re-analysis of the deposited data

Results flagged for a closer look

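For 5 genes, the effect of the TXNIP knockout differed between untreated and siNT-treated cells by a test of the difference itself (untreated minus siNT, adjusted p from edgeR). BCL2L1 stood at 0.77 (SE 0.14, adjusted p = 0.00215), with fold changes of 0.22 untreated and -0.54 with siNT. BAK1 stood at 0.78 (SE 0.15, adjusted p = 0.00221), from -0.10 and -0.87. BAD stood at 0.87 (SE 0.20, adjusted p = 0.00803), from 0.22 and -0.64, and its level was lower in every untreated library than in any siNT library. For BCL2 (-0.88, adjusted p = 0.0201) the fold changes were 0.08 and 0.97, and for BCL2L11 (-0.63, adjusted p = 0.0235) they were 0.56 and 1.2. BCL2L1 and BAK1 kept their calls in all 17 alternatives, BAD in 16, and BCL2 and BCL2L11 in 11 each. Counts stand for single reads in untreated cells but for read pairs with siNT, and the part of read layout in these differences cannot be told apart from that of treatment. No group has enough samples for the test of single outlying samples.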

How the results depend on the processing

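Percentages in brackets are the shares of all tested genes that were called. Untreated, the count of called genes among the 10 was 1 (9.61%). It became 0 with an adjusted p of at most 0.01 (1.15%), with the replicate block (4.53%) and with offsets for windows of 20 Mb (8.94%). With 1 untreated library left out, a group has a single library, and PMAIP1 was at 0.32 without 231:TKO replicate 2 and at -0.53 without 231:TKO replicate 1. With siNT the count of 7 (36.8%) stayed within 1.5 times of its value in all alternatives (5 to 9, with shares from 24.8% to 48.2%). After Myc knockdown in 231:TKO, the count of 3 (27.2%) became 5 without a filter on low counts (21.1%) and 5 with the replicate block (30.4%). It was 1 in the fit of the 12 siRNA libraries (9.66%) and 2 to 7 with each library left out (21.3% to 31.8%). Of the latter, it was 5 without 231:TKO+siNT replicate 2 (26.3%) and 7 without 231:TKO+siMyc replicate 3 (31.8%). In parental 231 the count of 0 (0.594%) became 1 in the fit of the 12 siRNA libraries (6.45%), 4 with the factor for the pair (26.8%) and 3 with the pair left out (20.8%). The difference of the siMyc responses had a count of 0 in every alternative. The difference of the knockout effects had a count of 5 (14.1%), which became 3 with an adjusted p of at most 0.01 (7.18%). With each siNT library left out it was 3 to 7 (9.91% to 20.6%). It was 3 without 231:TKO+siNT replicate 1 (10.3%) or 3 (9.91%) and 7 without parental 231+siNT replicate 1 (20.6%). The number of all genes called moved by over 1.5 times as follows. Untreated it was 1919 and became 229 with the stricter adjusted p, 904 with the block and 0 to 7002 with each library left out. In 231:TKO with siMyc 6106 became 2493 in the fit of the 12 siRNA libraries. In parental 231, 141 became 1110 with DESeq2, 91 with its size factors, 330 without a filter, 225 with a stricter one, 0 with the stricter adjusted p or the block, 1666 in the fit of the 12 siRNA libraries, 6363 with the pair factor (3250 higher and 3113 lower, against 57 and 84), 4673 without the pair and 0 to 160 with each library left out. For the difference of the responses 0 became 6 with DESeq2, 147 with the pair factor and 63 without the pair, and for that of the knockout effects 3544 became 1802 with the stricter adjusted p and 1758 to 5066 with each library left out. Of 950 values of single genes under an alternative, 871 stayed on their side of the threshold, 39 gained a call, 39 lost one and 1 reversed with a call, and 74 changed sign in all, 1 of them with a call. The replicate numbers do not pair the samples (correlations of deviations -0.15, 0.14 and 0.27 in 231:TKO and -0.81, 0.63 and -0.75 in parental 231 after siRNA, 0.02 untreated). Values of the block are therefore given only here, while the counts of alternatives elsewhere include it. In 231:TKO with siMyc the block added BCL2L1 (adjusted p = 0.0213) and BAD (adjusted p = 0.0126). It dropped BCL2L11 untreated (adjusted p = 0.0691) and MCL1 with siNT (adjusted p = 0.109), and changed no other call of the 10 genes. With CPM from library totals alone, 48 of 60 group levels moved by less than 1 SD. Group sizes of 2 and 3, and 48 to 67 counts of BBC3 in untreated cells, limit the precision.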
